A study of Mus musculus with 24 samples.

Results

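The mouse microRNA (miRNA) mmu-miR-494-3p was followed on 24 one-colour Agilent miRNA arrays. It is 1 of 1881 mouse miRNAs on the array, and it was chosen by its total gene signal and its share of the signal of all detected miRNAs, which were the largest on the arrays hybridized with RNase-treated liver RNA. Its signals with RNase are therefore given as a description, with no test. The miRNA was tested only in comparisons between groups without RNase. All 24 arrays entered 1 fit, so the RNase arrays did contribute to the estimate of spread behind each SE, interval and p-value. The RNA came from the livers of 3 male mice, numbered 7, 9 and 10 in the sample labels, and each mouse gave 1 array in each of 8 groups. Of these, 4 groups held total RNA including small RNAs, isolated with the miRNeasy kit from tissue processed at once (0 h) or kept at room temperature for 96 h, each with or without DNase digestion. The other 4 groups held RNA from 0 h tissue that was isolated with the RNeasy kit and DNase, which depletes small RNAs. This depleted RNA was hybridized untreated or after an incubation of 30 min at 37 °C with 0 U, 0.026 U or 0.67 U RNase, followed by reisolation. The RNA integrity number (RIN), which falls as RNA breaks down, was 8.8 to 9.4 in the 0 h, depleted and 0 U samples and 2.3 to 2.5 in the 96 h samples.

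A miRNA is cut from a hairpin precursor by Drosha in the nucleus and Dicer in the cytoplasm, and 1 of the arms of the hairpin usually guides Argonaute proteins to target transcripts through its seed, bases 2 to 8. The hairpin of miR-494 lies in the imprinted Dlk1-Dio3 region, in a large miRNA cluster from miR-379 to miR-410 that is expressed from the maternal chromosome, above all in placenta, embryo and brain. On this type of array the 3′ end of every RNA in the sample is labelled with a dye before hybridization. The signal of a probe therefore reports any labelled RNA that binds it, and a mature miRNA cannot be told apart from another RNA with matching bases.

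The sequences of the hairpin and of both its arms are shown because one arm carried every result described here and the other gave no signal. According to RefSeq on GRCm38.p6, the gene Mir494 occupies chr12:109715318-109715402 on the plus strand and lies between the miRNA genes Mir329 and Mir679. The array files name an older mouse assembly, and no coordinate was taken from them. The hairpin is given with both mature arms in capitals, and the mature RNAs and those of other miRNAs are given with the seed in capitals, all 5′ to 3′.
Mir494 hairpin: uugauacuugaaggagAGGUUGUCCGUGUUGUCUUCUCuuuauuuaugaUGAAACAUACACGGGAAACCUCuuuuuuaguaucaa
mmu-miR-494-3p: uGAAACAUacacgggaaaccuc
mmu-miR-494-5p: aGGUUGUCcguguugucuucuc
The mature miR-494-3p is 22 bases long and 45.5% of its bases are G or C. The median over the 1608 array miRNAs with a RefSeq sequence was 52.2%. No other of these miRNAs had the same seed.

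The tissue label was compared with marker miRNAs. All 4 hepatocyte markers, miR-122-5p, miR-192-5p, miR-194-5p and miR-148a-3p, were detected on at least 1 array of every group. miR-148a-3p was detected on 1 of 3 arrays in untreated depleted and in 0 U RNA, and on 2 of 3 at 0.67 U. The summed signal of the 4 was 7830 to 13757 on the 0 h arrays with DNase and 2490.6 to 3207 in untreated depleted RNA. Of this, miR-122-5p alone gave 6767 to 12125 and 2436 to 3157. The red blood cell, leukocyte, endothelial and stromal markers were each detected on all 6 arrays of 0 h RNA including small RNAs. Neither neuronal marker, miR-124-3p or miR-9-5p, was detected on any array. The summed signal of the 3 striated muscle markers was 0 on all arrays except the 96 h arrays, where it was 10.13 to 33.5 with 1 or 2 of the 3 markers detected per array, miR-133a-3p on all 6 arrays, miR-206-3p on 4 and miR-1a-3p on none. The number of miRNAs detected per array was 186 to 342 in 0 h and untreated or 0 U depleted RNA, 582 to 707 in 96 h RNA and 255 to 408 with RNase. No spot was saturated on any array.

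The labels of the 2 RNase arrays of mouse 9 contradict each other. Titles and characteristics give one dose, and descriptions and extraction protocols give the other. The arrays were assigned by the descriptions. Under that assignment the RIN was 2.4 at 0.67 U and 6.0 at 0.026 U in mouse 9, next to 2.9 and 7.0 in mouse 7 and 2.6 and 6.9 in mouse 10. The signals of miR-494-3p in mouse 9 had the opposite order to those of the other mice, as given below, so its dose ratio, its ranges and its mean share at each dose are given under both labels. All other values by dose follow the descriptions.

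miR-494-3p was detected on 24 of 24 arrays. Its total gene signal, the sum of its probes' background-subtracted signals after scaling for spot size, fell into 3 levels that did not overlap. It was at most 639 in 0 h, depleted and 0 U RNA, between 3979 and 10776 in 96 h RNA and at least 19763 with RNase. In intact RNA with DNase the signal was 314 in mouse 7, 321 in mouse 9 and 639 in mouse 10, a mean of 425 ± 186 (SD, n = 3). In intact RNA without DNase it was 301, 265 and 277 in the same mice, a mean of 281 ± 18.5 (SD, n = 3). Mouse 10 stood about 2-fold above the other mice with DNase and between them without it.

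After 96 h with DNase the signal was 9695 in mouse 7, 10776 in mouse 9 and 4728 in mouse 10, a mean of 8400 ± 3225 (SD, n = 3). After 96 h without DNase it was 5102, 3979 and 5307, a mean of 4796 ± 715 (SD, n = 3). All 6 arrays from stored tissue lay above all 6 arrays from 0 h tissue, and the arrays with and without DNase overlapped at 96 h. In untreated depleted RNA the signal was 344, 275 and 626 in mice 7, 9 and 10, and after the incubation with 0 U it was 287, 241 and 628. Mouse 10 was again the highest in both groups. These groups could not be separated from intact RNA, which spanned 265 to 639.

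With 0.026 U RNase the signal was 21307 in mouse 7, 105508 in mouse 9 and 19763 in mouse 10, a mean of 48859 ± 49065 (SD, n = 3). With 0.67 U it was 52249, 42227 and 102286, a mean of 65588 ± 32174 (SD, n = 3). Ordered by mean signal, the groups were 0 h without DNase, depleted 0 U, depleted untreated, 0 h with DNase, 96 h without DNase, 96 h with DNase, 0.026 U and 0.67 U. Neighbours in this order overlapped except at the step from 0 h with DNase to 96 h without DNase and at the step from 96 h with DNase to 0.026 U. The extraction software scaled signals by a measured spot size on 8 arrays, the 6 arrays of 96 h RNA and 2 RNase arrays (0.67 U of mouse 10 and 0.026 U of mouse 9), and by a default size on the other 16. The factor from median spot signal to probe signal was 0.275 to 0.301 on the former and 0.208 to 0.216 on the latter, so the storage, RNase and dose ratios of miR-494-3p are also given from the median spot signals, which do not contain it. Shares within an array do not contain it either.

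**Figure D1:**
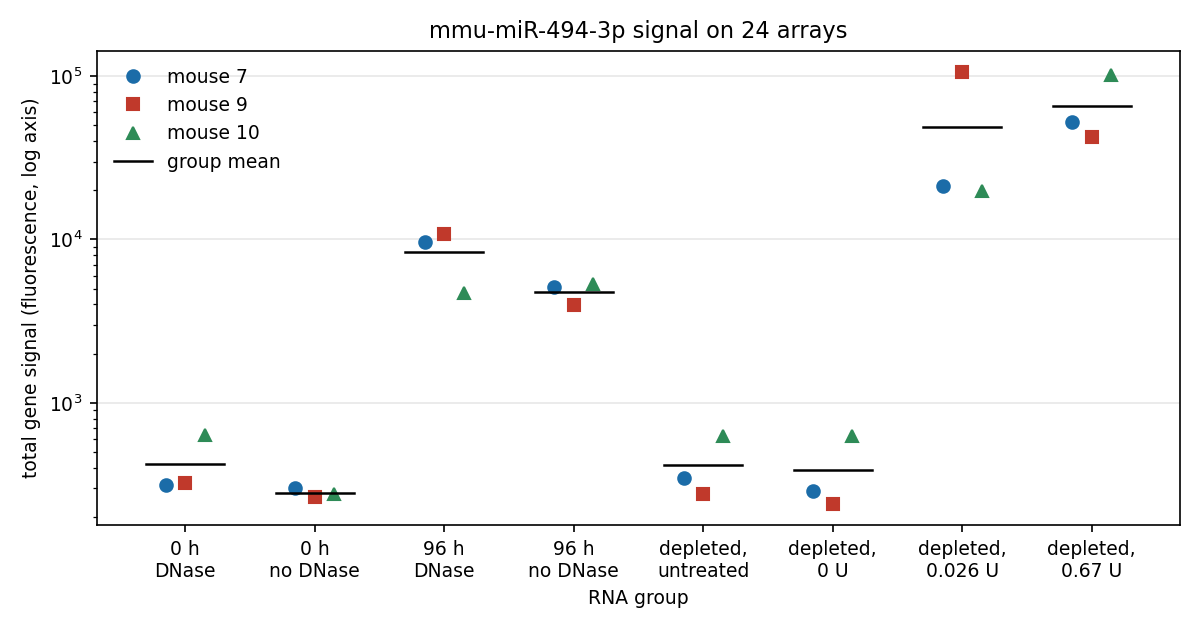
Total gene signal of mmu-miR-494-3p (fluorescence, log axis) on each of the 24 arrays, by RNA group, with 1 symbol per mouse and a line at the group mean. The 12 arrays of 0 h, depleted untreated and 0 U RNA lie at or below 639, the 6 arrays of 96 h RNA between 3979 and 10776, and the 6 RNase arrays at 19763 or above.

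The first comparison was storage, which asks how the signal changes as RNA breaks down in the tissue. The signal of miR-494-3p rose with 96 h of storage in all 3 mice, with and without DNase. With DNase the ratio of 96 h to 0 h was 30.8 in mouse 7, 33.6 in mouse 9 and 7.40 in mouse 10, and from median spot signals it was 22.0, 25.6 and 5.20. Without DNase the ratios were 16.9, 15.01 and 19.2, and from median spot signals 12.1, 11.5 and 13.9. The ratio of mouse 10 with DNase was the lowest of the 6 ratios, and its 0 h signal was the highest of the 0 h signals.

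For tests the signals were put on a variance-stabilised scale (glog2), on which a difference of 1 is a 2-fold change for bright signals. The 631 miRNAs detected on at least 5 arrays were tested, and a change was called at an adjusted p under 0.05 and a size of at least 1. With DNase miR-494-3p rose by 2.47 (SE 0.49, limma with Benjamini-Hochberg adjustment, adjusted p = 8.8e-05), and without DNase by 2.40 (SE 0.49, limma adjusted p = 0.00012). These SEs rest on the spread over all 8 groups, the RNase groups included. In fits of the compared groups only, the SE was 0.47 with DNase and 0.18 without DNase, and both rises stayed called. With DNase 81.9% of the 631 miRNAs were called, 60.4% as higher and 21.6% as lower, and the median change over all 631 was 2.47, so miR-494-3p itself was the median miRNA, with 315 miRNAs above it. Without DNase 83.5% were called, 60.5% as higher and 23% as lower, the median change was 2.16, and 304 miRNAs rose by more than miR-494-3p. The storage changes with and without DNase differed by -0.07 (SE 0.69, interval -1.51 to 1.36, limma adjusted p = 0.97).

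The call depended on the scaling in both storage comparisons. When each array was scaled to the 75th percentile of all miRNAs, the change was 0.92 with DNase and 0.70 without it, below the size that was called, and the median over the 631 miRNAs dropped to 0.68 and 0.35. Without any scaling between arrays the changes were 4.30 and 4.08, with medians of 3.46 and 3.26, and from spot medians without scaling they were 3.84 and 3.64, with medians of 4.08 and 3.89. With quantile normalization they were 1.14 and 1.76, with medians of 0.77 and 0.68, and with normexp they were 2.33 and 2.41, with medians of 0.16 and 0.14.

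The next comparisons asked whether DNA carried over without DNase adds to the signal. Omission of DNase did not raise miR-494-3p. At 0 h its change without DNase was -0.53 (SE 0.49, interval -1.54 to 0.48, limma adjusted p = 0.99), and the signal was lower without DNase in 3 of 3 mice, with ratios of 0.959 in mouse 7, 0.826 in mouse 9 and 0.433 in mouse 10. No miRNA was called by limma in this comparison (0% of 631), and 30 had an unadjusted limma p under 0.05. The exact rank test could call none, since its smallest p with 3 against 3 arrays is 0.1. At 96 h the change was -0.60 (SE 0.49, interval -1.62 to 0.41, limma adjusted p = 0.48), with ratios of 0.526, 0.369 and 1.12. In this comparison 10.8% of the 631 miRNAs were called. Neither difference in miR-494-3p was called. Both intervals include 0 and a drop of more than 2-fold. The fit did not pair arrays by mouse, and its SEs rest on the spread over all 8 groups. In fits of the compared groups only, the SEs were 0.27 at 0 h and 0.35 at 96 h, and again neither difference was called. On the glog2 scale the differences in mice 7, 9 and 10 were -0.10, -0.30 and -1.18 at 0 h. At 96 h they were -0.69, -0.85 and -0.27, so mouse 10 was lower on this scale though higher in signal.

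The depletion of small RNAs from intact RNA moved the signal of miR-494-3p by less than 1.2-fold in each mouse, while it lowered that of liver miRNAs. The ratio of depleted to intact RNA with DNase was 1.09 in mouse 7, 0.856 in mouse 9 and 0.980 in mouse 10. On the glog2 scale the change was 0.03 (SE 0.49, interval -0.98 to 1.04, limma adjusted p = 0.99). Of the 631 miRNAs 29.8% were called, 24.4% as lower. Among the markers of hepatocytes, miR-122-5p changed by -1.79 (limma adjusted p = 0.0062) and miR-192-5p by -4.89, and the erythroid marker miR-451a by -5.59. The signal of all other detected miRNAs together fell to 0.155, 0.0874 and 0.0828 of its level in intact RNA in mice 7, 9 and 10. No test of the difference between miR-494-3p and these markers was run. The call for depletion was open to the scaling. With scaling to the 75th percentile of the miRNAs detected on all arrays miR-494-3p was called higher in depleted RNA by 2.21, with quantile normalization by 2.81 and with normexp background correction followed by quantile normalization by 1.47.

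The incubation of depleted RNA without RNase controls for handling. The ratio of 0 U to untreated depleted RNA was 0.833 in mouse 7, 0.877 in mouse 9 and 1.004 in mouse 10, and the glog2 change was 0.15 (SE 0.49, interval -0.86 to 1.16, limma adjusted p = 0.99). In this comparison 1.74% of the 631 miRNAs were called, and miR-494-3p was not among them.

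**Figure D2:**
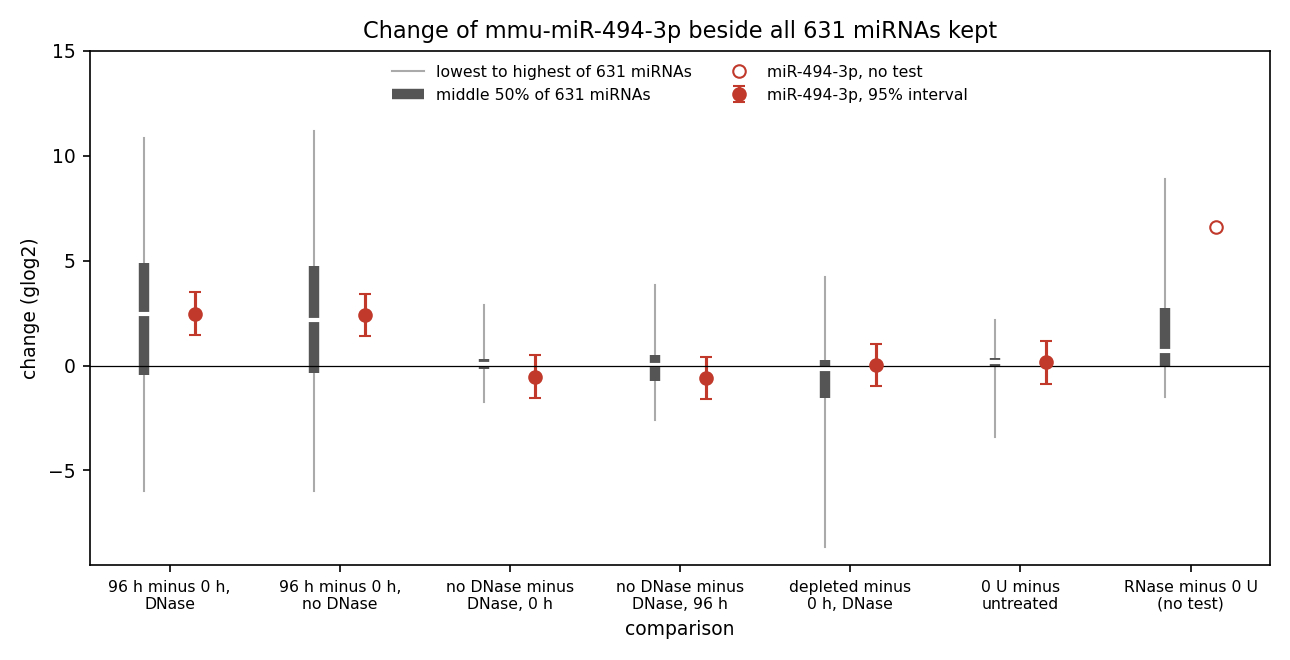
Change of mmu-miR-494-3p (red, glog2 scale) in each comparison, with its 95% interval from the limma fit, beside the 631 miRNAs tested (thin grey line from lowest to highest, thick line for the middle 50%, white mark at the median). The storage changes of 2.47 and 2.40 sit at or near the median, the changes with DNase omission, depletion and the 0 U incubation have intervals that include 0, and the RNase change of 6.62, shown open and without a test, lies above all but 5 miRNAs.

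In RNase-treated RNA, the condition for which it was picked, miR-494-3p was brighter than in 0 U RNA of the same mouse by 31.4-fold to 438-fold over the 6 RNase arrays, with a geometric mean of 132. From 0 U to 0.026 U the ratio was 74.4 in mouse 7, 438 in mouse 9 and 31.4 in mouse 10. From 0 U to 0.67 U it was 182, 175 and 163. In median spot signals the ratios to 0.67 U were 184, 177 and 117, and those to 0.026 U were 73.5, 328 and 31.6. On the glog2 scale the mean of both doses lay above 0 U by 6.78 in mouse 7, 7.49 in mouse 9 and 5.60 in mouse 10, a mean of 6.62 ± 0.95 (SD, n = 3). The median change of the 631 miRNAs in the same comparison was 0.69, and 5 of them had a larger change than miR-494-3p. The size of this change depended on the scaling and ran from 2.77 with quantile normalization to 7.08 with scaling to the spike-in controls.

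The signal at 0.67 U was 2.45 times that at 0.026 U in mouse 7 and 5.18 times that in mouse 10. In mouse 9 the ratio was 0.400 by the descriptions and 2.50 by the titles. From median spot signals the ratio was 2.50 in mouse 7, 3.69 in mouse 10 and, in mouse 9, 0.541 by the descriptions and 1.85 by the titles. By the descriptions the doses overlapped, from 19763 to 105508 at 0.026 U and from 42227 to 102286 at 0.67 U. By the titles they would not overlap, with 19763 to 42227 at 0.026 U and 52249 to 105508 at 0.67 U. The RIN of the brighter array of mouse 9 was 6.0 and that of the dimmer one 2.4, whereas in mice 7 and 10 the brighter array had the lower RIN.

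The share of miR-494-3p in the summed signal of all detected miRNAs of an array is a share of fluorescence and not of molecules. In intact RNA the share was 0.348% to 0.584% with DNase and 0.169% to 0.228% without DNase. It was 2.37% to 3.94% after storage with DNase and 2.04% to 2.60% after storage without it. In untreated depleted RNA the share was 3.88% in mouse 7, 3.31% in mouse 9 and 6.50% in mouse 10, higher than in any array from intact RNA although the range of the signal itself, 275 to 626, lay within that of intact RNA. In 0 U RNA it was 4.02%, 2.77% and 6.26%.

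With RNase miR-494-3p held the greater part of the array's signal on 6 of 6 arrays. At 0.026 U the share was 56.7% in mouse 7, 59.4% in mouse 9 and 54.4% in mouse 10, and at 0.67 U it was 62.6%, 60.1% and 60.7%. The share varied far less than the signal, which differed by more than 5-fold among the 6 arrays. The mean over the 6 arrays, both doses in each of 3 mice, was 59.0% ± 2.96 (SD, n = 6 arrays). It was 58.6% when all miRNAs with a signal above 0 made up the total and 58.2% from median spot signals. With the doses of mouse 9 taken from the descriptions the means were 56.8% at 0.026 U and 61.1% at 0.67 U. With those from the titles they were 57.04% at 0.026 U and 60.9% at 0.67 U.

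By rank of signal among the detected miRNAs of an array, miR-494-3p stood 12th to 29th in intact RNA, 7th to 10th after storage, 3rd to 6th in depleted untreated and 0 U RNA, and first on the 6 RNase arrays. There its signal was 5.67 to 10.0 times that of the brightest other miRNA. The rest of the signal rose with RNase as well. All other detected miRNAs together gave 6839 to 9414 with 0 U and 16297 to 72134 with RNase, 1.76-fold to 8.53-fold more than in 0 U RNA of the same mouse, with a geometric mean of 3.95. From median spot signals the rise was 1.76-fold to 6.43-fold, with a geometric mean of 3.59. In mouse 9 it rose by 8.53 at 0.026 U and by 3.32 at 0.67 U by the descriptions, the same order as its miR-494-3p signal.

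**Figure D3:**
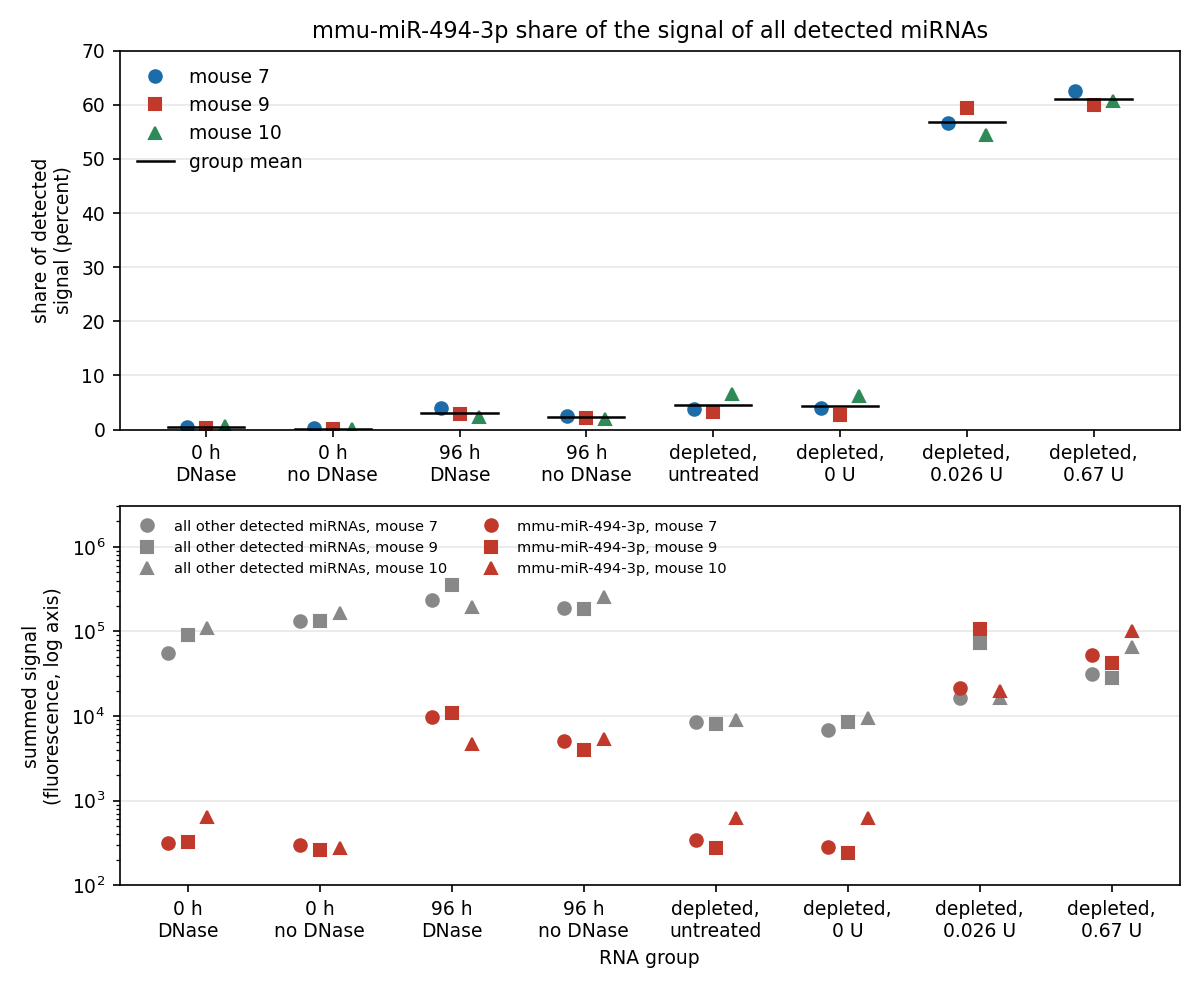
Top, share of mmu-miR-494-3p in the summed signal of all detected miRNAs (percent) on each array with the group mean as a line. Bottom, signal of mmu-miR-494-3p (red) and summed signal of all other detected miRNAs (grey) on a log axis, with 1 symbol per mouse. The share is 54.4% to 62.6% on the 6 RNase arrays and at most 6.50% on the other 18, and the red points lie above the grey ones on RNase arrays only.

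The miRNA is read by 2 probes, A_54_P2824 and A_54_P4400, with 15 spots each per array. The sequences of these probes are not given here. All 720 spots over the 24 arrays were well above background, and the brightest reached 29.7% of the scanner's saturation value. The coefficient of variation of the 15 spots of a probe ranged from 2.01% to 13.2% with a median of 4.08%. Probe A_54_P2824 gave 159 to 421 with 0 U and 12183 to 62654 with RNase. Probe A_54_P4400 gave 81.8 to 208 with 0 U and 7580 to 42855 with RNase. Both probes showed the 3 levels without overlap between them.

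The probes moved by different amounts with RNase. Over both doses the geometric mean ratio to 0 U was 121 for A_54_P2824 and 153.5 for A_54_P4400. The ratio of A_54_P2824 to A_54_P4400, followed from array to array, was 1.94 to 2.03 in 0 U RNA, 1.91 to 1.96 in untreated depleted RNA and 1.46 to 1.65 with RNase, so the RNase arrays did not overlap with either. In intact RNA the ratio was 1.76 to 2.09. After storage it was more spread, from 1.41 to 2.15 with DNase and from 1.80 to 2.13 without DNase. Within the 6 RNase arrays, the 2 arrays with the highest miR-494-3p signal had the lowest ratios, 1.46 and 1.496. Taken alone, each probe gave the same calls as both together in the 6 tested comparisons. The storage change with DNase was 2.42 for A_54_P2824 and 2.56 for A_54_P4400.

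**Figure D4:**
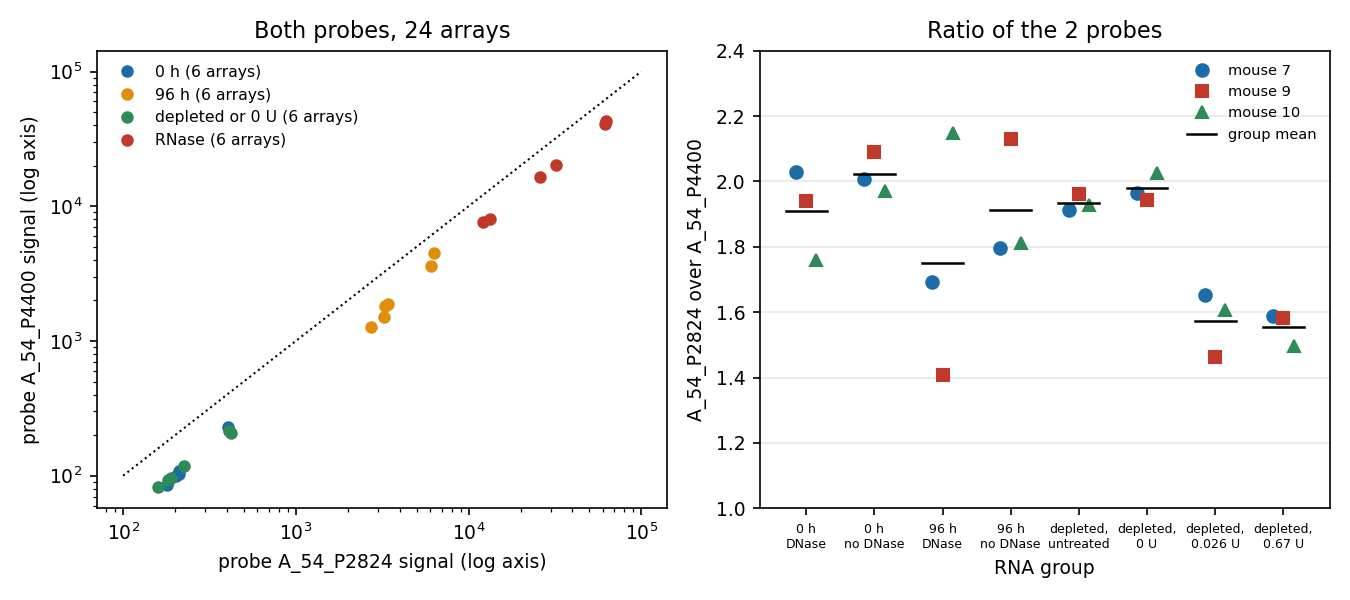
Left, signals of the 2 probes of mmu-miR-494-3p on the 24 arrays (log axes, dotted line at equal signal), coloured by RNA kind. Right, ratio of A_54_P2824 to A_54_P4400 by RNA group with 1 symbol per mouse and a line at the group mean; the ratio is 1.46 to 1.65 on the 6 RNase arrays and 1.91 to 2.03 on the 6 arrays of untreated depleted and 0 U RNA.

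The other arm of the hairpin, miR-494-5p, was detected on 0 of 24 arrays. The miR-379 to miR-410 cluster provides 74 other mature miRNAs on the array, and 63 of them were detected on no array. Only 3 were detected on at least 5 arrays and entered the tests, miR-3072-5p, miR-134-5p and miR-487b-3p. With storage 2 of these 3 rose and 1 fell, with and without DNase, against 81.9% and 83.5% of all 631 miRNAs called. Their median change was 4.12 with DNase and 3.57 without DNase, beside 2.47 and 2.16 over all 631. With depletion 1 of the 3 fell, beside 29.8% called in all, and with RNase 1 of the 3 rose, beside 44.7%. Counts over 3 miRNAs say little about the cluster. The cluster was taken as a list of names that includes miR-3072, whose place relative to miR-410 is not given here.

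The sequences of the cluster miRNAs detected on the most arrays besides miR-494-3p are shown where RefSeq lists them, with the seed in capitals.
mmu-miR-3072-5p: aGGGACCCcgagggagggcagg
mmu-miR-134-5p: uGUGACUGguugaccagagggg
mmu-miR-666-5p: aGCGGGCAcagcugugagagcc
miR-3072-5p was detected on 24 arrays, with 3.86 to 10.4 in 0 U RNA, 256 to 695 after storage with DNase and 6.25 to 31.1 with RNase. It rose with storage by 4.12 with DNase and 3.57 without DNase, and its RNase change of 0.86 was below the size that was called. miR-134-5p, a miRNA of neurons that restrains dendritic spine growth, was detected on the 12 arrays of 96 h and RNase-treated RNA and on no other. It gave 51.3 to 151 after storage with DNase, 52.2 to 73.3 after storage without DNase and 13.7 to 195 with RNase. Because it was not detected on any 0 h or 0 U array, only a lower bound of its difference was taken, from glog2 group means. This bound was 19.4-fold for storage with DNase, 12.6-fold for storage without DNase and 23.9-fold for RNase. It depends on the scaling between arrays and is not a ratio of the signals above. miR-487b-3p went the other way. It was detected on 5 of the 6 intact arrays and on no other array, with signals of 1.90 to 11.1 on those 6. With DNase 2 of the 3 intact arrays detected it. It was called lower with storage with and without DNase. No fold is given, since its signals were weak and no stored array detected it. miR-666-5p was detected on 4 arrays, all from 96 h tissue, and was not tested. In these 74 miRNAs, none but miR-134-5p and miR-3072-5p was detected on an RNase array.

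To ask which miRNAs ran parallel to miR-494-3p, Pearson correlations were computed on the glog2 scale over the 24 arrays with the 630 other miRNAs tested. These coefficients are descriptive, since the arrays share 3 mice and 8 conditions and the RNase arrays set most of the range. The median coefficient was 0.19, and 13 miRNAs lay above 0.9. The 5 highest were miR-7036a-5p (0.98), miR-6908-5p (0.96), miR-6769b-5p (0.96), miR-8097 (0.95) and miR-6998-5p (0.95). Over the 18 arrays without RNase their coefficients were 0.92, 0.93, 0.94, 0.95 and 0.86. The median over all 630 on these 18 arrays is not given, so these values cannot be called particular to the 5. The 18 arrays include storage, with which 60.4% and 60.5% of the 631 miRNAs were called higher with and without DNase.

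Like miR-494-3p, these 5 were low in 0 h, depleted and 0 U RNA and high after storage and with RNase. miR-7036a-5p gave 5.30 to 13.9 with 0 U, 144 to 648 after storage with DNase, 59.7 to 117 after storage without DNase and 255 to 1932 with RNase. miR-6908-5p gave 15.7 to 24.4 with 0 U, 512 to 773 and 375 to 734 after storage with and without DNase, and 373 to 2017 with RNase. miR-6769b-5p gave 34.5 to 71.8 with 0 U, 1084 to 4132 and 322.7 to 976 after storage, and 700.5 to 4305 with RNase. miR-8097 was detected on 10 arrays and miR-6998-5p on 13, with at most 45.4 and 82.0 with RNase. None of the 5 changed past the threshold with depletion. Omission of DNase at 96 h lowered miR-7036a-5p by a change of -1.86 (limma adjusted p = 0.020) and miR-6769b-5p by a change of -1.77 (limma adjusted p = 0.022), beside 10.8% of all 631 miRNAs called. The changes of miR-6908-5p (-0.15), miR-8097 (-1.39), miR-6998-5p (-0.37) and miR-494-3p (-0.60) did not pass. Whether the changes differed between these miRNAs was not tested.

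The sequences of the 4 that RefSeq lists are set beside miR-494-3p to show which bases they share with it, with the seed in capitals.
mmu-miR-494-3p: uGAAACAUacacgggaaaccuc
mmu-miR-7036a-5p: aGCGGGGUucgguggggaagaga
mmu-miR-6908-5p: uUGCCUGUcagggagagcccca
mmu-miR-6769b-5p: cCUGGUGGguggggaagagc
mmu-miR-6998-5p: cUGGGCAGagggcaaagugacu
None shared the seed of miR-494-3p. The longest run in common with miR-494-3p was GGGAA in miR-7036a-5p and miR-6769b-5p (5 bases), GGGA in miR-6908-5p (4 bases) and UGA in miR-6998-5p (3 bases), where the median over the array miRNAs with a sequence was 4 bases. miR-7036a-5p and miR-6769b-5p shared a run of 12 bases with each other, GGUGGGGAAGAG, so these 2 miRNAs share a sequence and are not separate points. The letters GGGA, picked after the sequences were seen and searched on the given strand of the mature RNA, were in miR-494-3p, in 3 of these 4 miRNAs, in 22.2% of the 526 tested miRNAs with a sequence and in 13.6% of the 1608 on the array. A match is a description and was not tested.

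**Figure D5:**
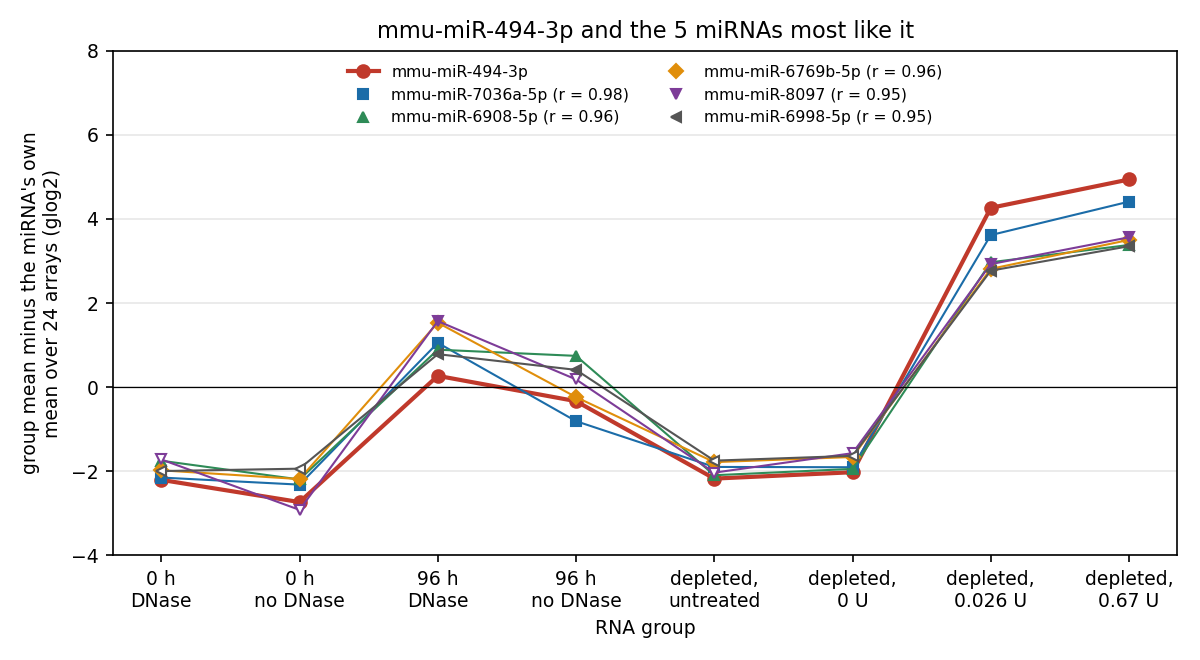
Group means on the glog2 scale of mmu-miR-494-3p and of the 5 miRNAs with the highest Pearson correlation with it over 24 arrays, each minus its own mean over all arrays, so that levels of different miRNAs are not compared. Open symbols mark groups in which the miRNA was not detected on all 3 arrays. The lines lie below 0 in 0 h, depleted untreated and 0 U RNA and reach their highest point at 0.67 U, where mmu-miR-494-3p stands 4.94 above its mean.

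At the other end, the lowest coefficients with miR-494-3p were those of miR-219a-5p (-0.66), miR-200a-3p (-0.62) and miR-19a-3p (-0.62). miR-200a-3p is an epithelial miRNA that represses the Zeb transcription factors, and miR-19a-3p belongs to the growth-promoting miR-17-92 cluster. The 3 were detected on all 6 intact arrays and on no depleted, 0 U or RNase array. miR-19a-3p gave 8.10 to 18.5 in intact RNA with DNase and 17.1 to 37.9 without DNase. It was called lower with depletion, beside 24.4% of all 631 miRNAs called lower. No size is given, since no depleted array detected it.

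Besides miR-494-3p, the largest mean shares of signal on the RNase arrays were those of miR-1224-5p, miR-122-5p and miR-3960. They were 5.99% ± 0.74, 5.44% ± 2.80 and 3.16% ± 1.16 (SD, n = 6 arrays, both doses in each of 3 mice). Of these miRNAs, RefSeq lists only miR-1224-5p.
mmu-miR-1224-5p: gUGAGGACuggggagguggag
miR-1224-5p gave 160 to 401 with 0 U, 1809 to 11632 at 0.026 U and 4436 to 11344 at 0.67 U. After storage it gave 8862 to 25600 with DNase and 1470 to 11622 without DNase, ranges that overlap with those of the RNase arrays. miR-3960 gave 56.2 to 92.8 with 0 U, 933 to 7590 with RNase, 11280 to 17052 after storage with DNase and 15987 to 23477 after storage without DNase. Every storage array thus lay above every RNase array for miR-3960, whereas for miR-494-3p every RNase array lay above every storage array. miR-122-5p, the main miRNA of hepatocytes, gave 1982 to 3452 with 0 U and 2719 to 5146 with RNase, and its share went from a mean of 32.8% in 0 U RNA to 5.44% with RNase.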

How the data were processed

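Total RNA from the livers of 3 mice was hybridized to 24 Agilent mouse miRNA arrays with 1881 miRNAs. The authors scanned the arrays and deposited background-subtracted fluorescence intensity from Agilent Feature Extraction 10.10.1.1. Spot intensities were combined to probe signals scaled for spot size. The probe signals of a miRNA were summed to a total gene signal, given with a detection flag. A deposited table of log2 values holds the authors' vsn-normalized signals of the same arrays and was used as an alternative. For the present values the total gene signals of all miRNAs were put on the glog2 scale by a reimplementation of vsn in Python 3.11.15 with numpy 2.4.6, tested on simulated data. These values differed from the deposited ones with an SD of 0.096 and a lowest correlation of 0.9998. The 631 miRNAs detected on at least 5 arrays were tested with limma 3.58.1 in R 4.3.3 with 8 group means, a variance trend and Benjamini-Hochberg adjustment. All 24 arrays, the RNase arrays included, entered 1 fit. Calls needed an adjusted p under 0.05 and a change of at least 1. In simulated data for storage with DNase, with 200 of 631 miRNAs changed, 80% of changes of 2 and 95% of changes of 3 were recovered, with 3 false calls. The simulation added as many rises as falls to values already on the glog2 scale, so it did not cover the scaling between arrays. In the real comparison 81.9% were called, 60.4% as higher and 21.6% as lower, so these rates do not describe it. The number of arrays, 3 per group, limits the precision. Intervals are 95% intervals of the fit.

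Groups came from the labels, and for the RNase arrays of mouse 9 from the descriptions. The description gives the animal number, so arrays of the same replicate number share a mouse. All arrays of a mouse also share 1 slide and scan, so mouse and slide cannot be told apart. Deviations from the group means had a mean correlation of 0.091 between arrays of the same mouse and -0.099 between arrays of different mice. Within groups the arrays correlated at 0.85 to 0.98. The named miRNAs were miR-494-3p, its other arm, the members of the miR-379 to miR-410 cluster (naming the 4 detected on the most arrays), miRNAs with the same seed, the 5 with the highest and the 3 with the lowest correlation with it, the 3 other miRNAs with the largest mean share on the RNase arrays, and marker miRNAs of 7 cell types. miR-494-3p and these lists were chosen with earlier results of these data known. Alternatives changed the scaling (spike-ins, 75th percentiles, quantiles, none), the background correction (normexp with an offset of 50, on median spot signals), the filter, the replicate block, the groups fitted, the test (exact rank test), the probe and the mice. The use of median spot signals without scaling was added after the data were seen. Mature sequences are from RefSeq (GRCm38.p6), which listed 1608 of the 1881 array miRNAs.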

Additional observations from a re-analysis of the deposited data

How the results depend on the processing

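The rises of miR-494-3p with storage kept their direction under all alternatives and stayed called under 15 of 18. With DNase the change of 2.47 was no longer called at 0.92 with scaling to the 75th percentile of all miRNAs, at 0.72 with vsn fitted on the tested miRNAs alone, and at 2.47 with the exact rank test, whose smallest p with 3 against 3 arrays is 0.1. Without DNase the change of 2.40 was no longer called at 0.70, 0.96 and 2.40 under the same settings. The causes were not tested, except that the rank test cannot pass the threshold at this size. Depletion was called as a rise at 2.21 with the 75th percentile over miRNAs that every array detected, at 2.81 with quantile normalization and at 1.47 with normexp. Its change of 0.03 turned to -0.041 without normalization and to -0.040 from spot medians. The 0 U incubation, 0.15 in the main setting, was -0.28 with spike-in scaling, -0.12 with the 75th percentile over miRNAs that every array detected, -0.15 with quantile normalization, -0.15 without normalization, -0.094 with normexp and -0.15 from spot medians, none of them called. The RNase change of 6.62 moved to 5.30 with the 75th percentile over miRNAs that every array detected, 2.77 with quantile normalization and 4.49 with normexp.

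Leaving out each mouse in turn gave 2.20 to 2.94 for storage with DNase, 2.38 to 2.44 for storage without DNase, -0.74 to -0.20 for omission of DNase at 0 h, -0.77 to -0.48 for omission at 96 h, -0.076 to 0.15 for depletion, -0.0033 to 0.35 for the 0 U incubation, 6.19 to 7.14 for RNase and 58.6% to 59.7% for the share with RNase (55.5% to 58.0% at 0.026 U and 60.4% to 61.7% at 0.67 U). With the replicate block the storage changes of 2.47 and 2.40 had adjusted p-values of 0.00013 and 0.00017 in limma, and the block changed no call of the 6 comparisons. Without the detection filter 41 of the 74 other cluster miRNAs were called with storage and DNase and 43 without DNase, in place of 3 of 3 tested; 63 of the 74 were detected on no array, and over all 1881 miRNAs 64.6% and 60.4% were called. The count for storage was 1 with normexp and 0 with the rank test, with and without DNase. With RNase the count of 1 was 2 with spike-in scaling, without normalization, with vsn on the tested miRNAs, from spot medians and without mouse 10, and 4 without the filter. With depletion it was 2 with the 75th percentile over miRNAs that every array detected, 6 without the filter and 0 with normexp and the rank test.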
